A study of Mus musculus with 6 samples.

Results

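The genes described here are the protein-coding mouse genes with symbols from Zfp600 to Zfp999 and no letter after the number. This stretch of gene names holds many members of the Krüppel-associated box (KRAB) zinc finger family. The genes described were chosen by a rule on symbol and annotated gene type that used no measured value, with earlier results of these data known. They numbered 171 of the 49315 genes in the count table. Another 220 protein-coding Zfp genes serve for comparison. They carry other numbers or a letter after the number, as Zfp955a does. Messenger RNA was sequenced after poly(A) selection from mouse bone marrow of animals on the HFSC diet (the diet is named here as the labels give it) that had undergone hindlimb ischemia, an interruption of the blood supply of a leg. KO denotes the 3 libraries of genotype miR-181a2b2-/- (replicates 2, 3 and 4), and WT denotes the 3 libraries of genotype miR-181a2b2flox/flox (replicates 1, 3 and 4), in which the locus is flanked by recombination sites and intact. Diet and ischemia were shared by both groups, so no library used here came from untreated animals, and neither the ages of the animals nor a Cre driver is stated in the sources used here. Whether each library is a separate animal is not in the labels, so p-values measure the spread between these libraries, which may be partly technical.

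In a C2H2 zinc finger, a pair of cysteines and a pair of histidines hold a zinc ion, and arrays of such fingers read DNA sequence. In KRAB zinc finger proteins the KRAB domain recruits Trim28, which brings the histone methyltransferase Setdb1, heterochromatin proteins and the NuRD deacetylase complex to silence transposable elements and nearby genes. miR-181a and miR-181b are microRNAs of blood-forming cells, and in human cells repeated matches to their seed have been described in the coding sequences of C2H2 zinc finger genes.

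The microRNAs of the deleted locus are shown first because their shared seed, bases 2 to 8 from the 5′ end, in capitals, defines the matches counted below. The mature sequences are from RefSeq (GRCm38.p6), at chr2:38852741-38852763 and chr2:38853845-38853868, both on the plus strand.
miR-181a-5p: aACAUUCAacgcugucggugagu
miR-181b-5p: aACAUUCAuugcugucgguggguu
The same mature sequences are also encoded at chr1:137966468-137966490 and chr1:137966650-137966673 on the plus strand, a locus that the genotype labels do not name. The deletion could not be checked from these counts: the hairpin genes Mir181a-2 and Mir181b-2 had 0 counts in all 3 KO and all 3 WT libraries, and poly(A) libraries do not capture mature microRNAs.

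The members carried the reverse complement of this seed, the 7 bases TGAATGT, more densely in their coding sequences than protein-coding genes as a whole. Values for the other Zfp genes are not given here, so the trait is not shown to be particular to the members. The search covered the transcript strand of the longest annotated coding sequence of each gene (GENCODE M21, GRCm38) and found 580 matches in 107 of 171 members, or 62.6%. Over 21668 protein-coding genes, members included, 11.6% had a match. At least 3 matches were present in 69 members (40.4%), and in 238 (1.10%) of all protein-coding genes. Per kilobase of coding sequence the density was 1.88 matches in the members, and 0.118 over all protein-coding genes. A match is a description of the letters and does not show that a microRNA acts there.

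The matches followed the repeat of the fingers. Of 577 matches with flanks in a single exon, 562 began on the last base of a codon. Of the 580 matches 237 ended on the codon of the first zinc-binding cysteine of a finger and 279 on that of the second, and 64 lay elsewhere. Of 471 successive pairs of matches within a gene 387 were a multiple of 84 bases apart, and 301 exactly 84 bases, the length of a finger with its linker (28 residues). The sites below are shown to make these placements visible; the seed match is in capitals, each site lies in a coding exon, and coordinates are GRCm38.
Zfp994, chr17:22200974-22200998, minus strand: caaatgtagTGAATGTgacaaaagc
Zfp994, chr17:22200890-22200914, minus strand: cagatgtagTGAATGTgacaaaggc
Zfp994, chr17:22200806-22200830, minus strand: caaatgtagTGAATGTgacaaatgc
Zfp984, chr4:147755487-147755511, minus strand: caaatgtagTGAATGTgacaaatgc
Zfp946, chr17:22455328-22455352, plus strand: caaatgtagTGAATGTgacaaatgc
Zfp971, chr2:178033161-178033185, plus strand: gaaaccctaTGAATGTaaacaatgt
Zfp930, chr8:69228035-69228059, plus strand: gaaagcctaTGAATGTaatgaatgt
Zfp930, chr8:69228044-69228068, plus strand: tgaatgtaaTGAATGTggtaaaggc
The sites of Zfp994 are successive and their starts lie 84 bases apart. In Zfp994, 15 of 16 matches ended on the second cysteine codon of a finger, and in Zfp971, 12 of 13 ended on the first. Zfp930 had matches at both places, and the 2 sites shown overlap each other's flanks.

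**Figure D1:**
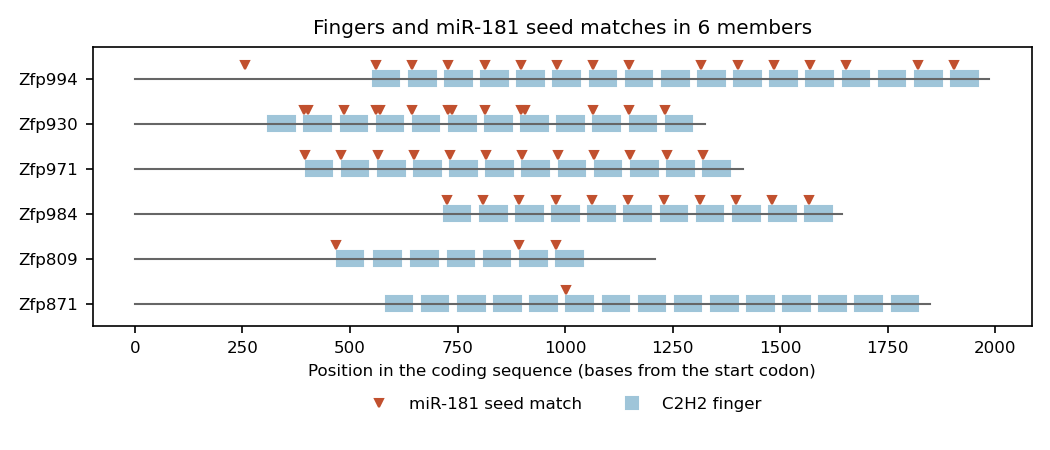
Fingers (blue boxes) and matches to the miR-181 seed (red triangles) along the coding sequences of 6 members, in bases from the start codon. Zfp994 (16 matches), Zfp930 (14), Zfp971 (13) and Zfp984 (11) carry matches in most of their fingers, whereas Zfp809 has 3 and Zfp871 has 1; for Zfp971, 12 of the 13 are drawn, since a match whose flanks do not lie in a single coding exon is left out.

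By a pattern for the first part of the KRAB domain (the A box) in the translated sequence, 118 members were KRAB members and 53 were not. A coding seed match was present in 98 of the 118 KRAB members (83.1%) and in 9 of the 53 others (16.98%). The members had a median of 11 canonical fingers; Zfp619 had the most, 33, and 8 members had none by the pattern used. Across the 171 members the number of fingers and the number of matches had a Spearman correlation of 0.37, given as a description because longer arrays offer more places for a match. The members lay on 20 chromosomes, with 35 on chromosome 7, 22 on chromosome 17, 20 on chromosome 4, 16 on chromosome 8 and 15 on chromosome 2.

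Sequencing depth was similar in both groups. Total counts were 33861440, 36394812 and 39566582 in KO replicates 2, 3 and 4, against 34000323, 40034773 and 40359093 in WT replicates 1, 3 and 4. A floor was set at 3 counts, about the upper 95% limit of the expected count when 0 is observed. It corresponded to 0.0743 to 0.0886 CPM (counts expressed relative to library size) before scaling. This floor covers counting error only. On the first principal component of log2 CPM (40.05% of the variance), KO replicate 4 lay at 53.9, KO replicates 2 and 3 at 9.09 and 12.02, and the WT libraries between -27.5 and -21.9, so KO replicate 4 stood apart from the other KO libraries. Markers of marrow cells were present: 12 of 12 neutrophil genes were measured, with summed levels of 66055 to 80047 CPM in KO and 44337 to 55831 CPM in WT, and 3 of them were higher in KO. Erythroid genes (12 of 12 measured, 2 lower in KO) summed to 13735 to 23662 CPM in KO and 14384 to 32040 CPM in WT, and B lineage genes (12 of 12 measured, 0 called) to 141 to 449 CPM in KO and 346 to 553 CPM in WT. The extraction label names white adipose tissue. Of 8 adipocyte genes 5 were tested and 0 called, and the list summed to 29.9 to 46.2 CPM in KO and 21.98 to 33.3 CPM in WT; Fabp4, the highest, reached 33.8 CPM in KO and 20.9 CPM in WT, Adipoq 6.62 CPM in KO and 4.77 CPM in WT, and Lep, at or below 1 count in every library, lay under the floor. In bulk marrow, fewer cells of a type and less RNA per cell cannot be told apart. None of the 7 marker lists had a gene at 0 counts in all 6 libraries.

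The Zfp600 to Zfp999 genes were mostly low in marrow. Levels between genes are given per length, as RPKM (CPM divided by the exon length in kilobases). The median of the mean RPKM over the 6 libraries was 1.25 across the 171 members, with quartiles of 0.178 and 3.77. Of the members 95 reached a mean of 1 RPKM, 30 reached 5 and 8 reached 10, and 7 had 0 counts in every library. The filter on low counts left 138 members for testing, and the 26 untested members with counts had at most 0.215 CPM on average. The tested members had a median of 2.01 RPKM, and the 13805 tested protein-coding genes one of 5.15 RPKM. KRAB members were lower than the others, with a median of 0.925 RPKM over 118 genes and 3.05 RPKM over the 53 without the pattern. Members with 10 or more coding seed matches had a median of 0.198 RPKM (20 genes), and those with none 2.11 RPKM (64 genes). Levels also differed by the share of 50-base stretches found in no other gene. The median was 0.0206 RPKM where this share was under 50% (23 genes, 91.3% with a coding match). It was 1.93 RPKM where the share was at least 90% (114 genes, 54.4% with a match). The part of reads lost to near-identical copies in these differences was not tested.

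Together the members took 0.222%, 0.231% and 0.203% of the counts in KO replicates 2, 3 and 4, against 0.232%, 0.248% and 0.254% in WT replicates 1, 3 and 4. Each KO share was below each WT share, by a small margin between KO replicate 3 and WT replicate 1. An exact two-sided permutation test of 3 against 3 libraries cannot go below p = 0.1. After scaling by the method used for the tests, which corrects for large shifts in a few abundant genes, the summed levels overlapped, at 2235, 2348 and 2147 CPM in KO replicates 2, 3 and 4 and 2279, 2432 and 2446 CPM in WT replicates 1, 3 and 4. The neutrophil sums given above were higher in every KO library, and their part in this share was not tested.

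The 3 highest members encode proteins with few fingers. Zfp740 averaged 26.3 ± 2.2 RPKM in KO and 25.8 ± 3.3 RPKM in WT (SD, n = 3 each). Zfp706, a small protein that promotes exit from self-renewal in mouse embryonic stem cells, averaged 25.5 ± 1.9 RPKM in KO and 23.5 ± 1.7 RPKM in WT. These neighbours at the top of the order did not differ beyond their spread. Zfp830, whose human homologue associates with the splicing machinery, followed at 18.7 ± 0.46 RPKM in KO and 16.04 ± 0.80 RPKM in WT. Its 3 KO libraries (18.9, 18.2 and 18.99 RPKM) were all above its 3 WT libraries (16.96, 15.6 and 15.5 RPKM), with a log2 fold change of 0.22 ± 0.09 (SE) and an adjusted p of 0.165 (edgeR quasi-likelihood test).

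Next in the order of mean RPKM over the 6 libraries were Zfp710 (16.7), Zfp869 (13.8), Zfp692 (13.2), Zfp984 (11.3), Zfp800 (10.2), Zfp971 (9.33) and Zfp703 (8.89). The human homologue of Zfp703 is amplified in some breast cancers. Zfp869, Zfp984 and Zfp971 were the KRAB members among these 10. Of the stretches of 50 bases of their transcripts, 45.5% in Zfp984 and 48.9% in Zfp971 were found in no other gene, so reads of these genes may have been shared with near-identical copies and their levels are uncertain; for Zfp869 the share was 90.7%. The log2 fold changes of Zfp710, Zfp869, Zfp692, Zfp984 and Zfp703 lay between -0.09 and 0.07, with overlapping groups.

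**Figure D2:**
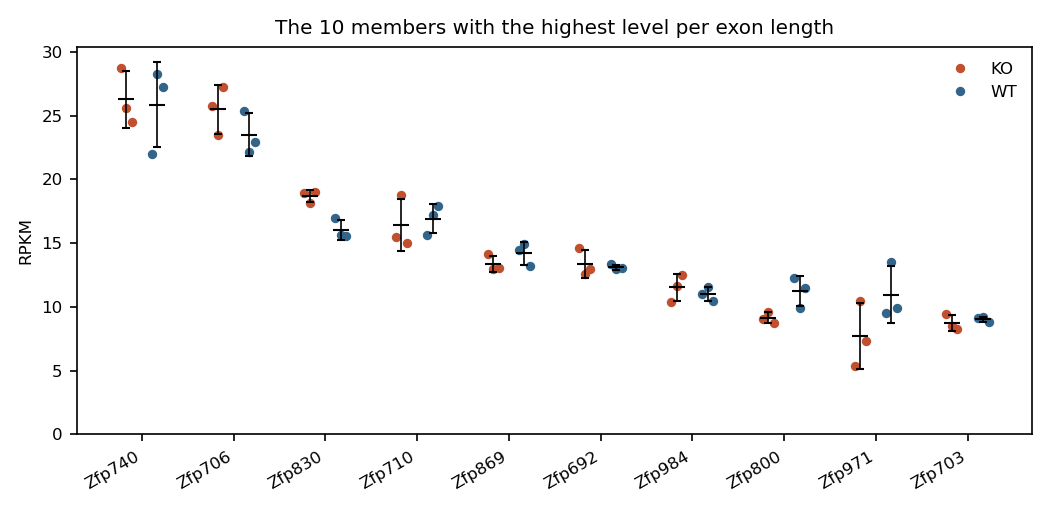
RPKM of the 10 members with the highest mean level, with 1 point per library, KO left of WT, and the black marks giving mean ± SD (n = 3 each). KO and WT points intermingle for most of these genes; Zfp830 is higher in every KO library and Zfp800 is lower in every KO library.

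Between KO and WT, no member passed the threshold in either direction. Of the 138 members tested 0 were higher and 0 were lower in KO at an adjusted p under 0.05 (edgeR quasi-likelihood test, Benjamini-Hochberg adjustment over all genes tested), while 2.46% of the 16956 genes tested were called, 0.938% higher and 1.52% lower. At an unadjusted p under 0.05, 2 members were higher and 10 lower, 8.70% of those tested, against 23.9% of all genes (11.7% higher and 12.2% lower). The libraries of both groups did not overlap for 9 members that were higher and 13 that were lower in KO, 15.9% of those tested, against 29.1% of all genes (14.4% higher and 14.7% lower). By DESeq2, which gave an adjusted p to 122 members, 1 was higher and 2 were lower in KO, while 12.6% of 13007 genes were called (6.59% higher and 6.03% lower). By limma 0 members were higher and 1 was lower, while 6.23% of genes were called (2.92% higher and 3.31% lower).

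The fold changes of the members lay close to 0. Their median log2 fold change was -0.03, with quartiles of -0.18 and 0.10, and 63 of 138 (45.7%) were above 0. Over all genes tested the median was -0.01, with quartiles of -0.25 and 0.20, and 48.9% were above 0. The median standard error of a member was 0.15, and the 95% interval of the fold change lay within 2-fold either way for 121 of the 138 and within 1.5-fold for 94, which bounds the size of any change at this depth for those genes.

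**Figure D3:**
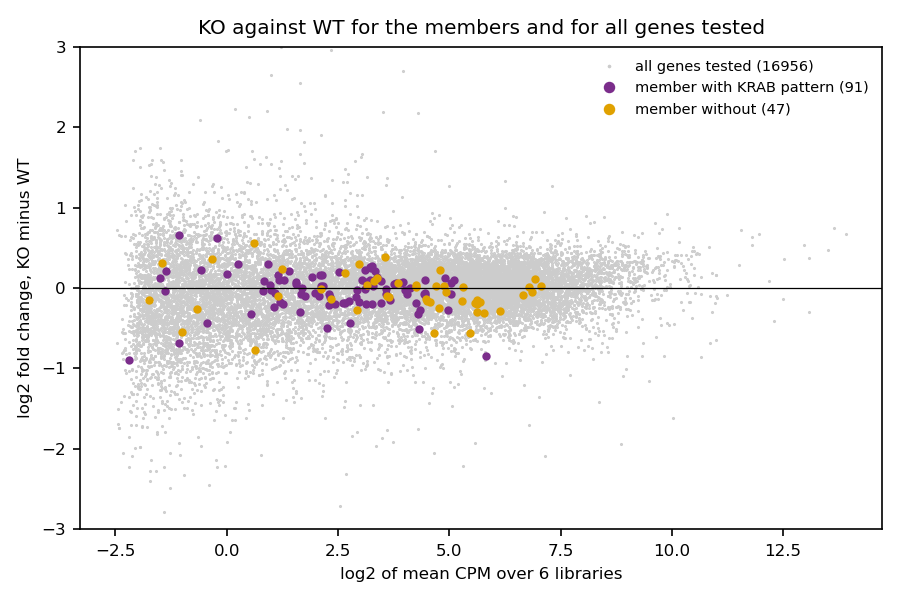
Log2 fold change (KO minus WT) against the log2 of the mean CPM over 6 libraries for all 16956 genes tested (grey) and for the 138 members tested, 91 with the KRAB pattern (purple) and 47 without (yellow). The members lie around 0 (median -0.03); 7 genes lie outside the plotted range of 3 either way.

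Fold changes of the tested members did not order with the number of seed matches. Of the 20 members with 10 or more coding matches 13 were tested, at a median of 0.637 RPKM. Of the 64 without a coding match 57 were tested, at a median of 2.75 RPKM. The members with the most matches were thus measured at lower levels. The median log2 fold change was -0.02 in 57 tested members without a coding match, 0.03 in 28 with 1 to 2, -0.06 in 15 with 3 to 5, -0.03 in 25 with 6 to 9 and -0.02 in 13 with 10 or more. Across the 138 tested members the Spearman correlation of the number of coding matches with the log2 fold change was -0.02, and with the number of matches in the 3' UTR it was -0.08; both are descriptions across genes that share the same 6 libraries. Members with at least 1 match in the 3' UTR (50 tested) had a median of -0.07, and those without (88 tested) one of -0.02. With no overlap between groups, 0 of the 50 were higher and 5 lower, and 9 of the 88 were higher and 8 lower, set against 14.4% higher and 14.7% lower of all genes; the difference between the 50 and the 88 was not tested. The tested members with the most coding matches follow. Zfp994 (16 matches) had 9.94, 7.51 and 9.57 CPM in KO replicates 2, 3 and 4, against 8.96, 8.90 and 7.89 CPM in WT replicates 1, 3 and 4. The groups overlapped, with a log2 fold change of 0.07 ± 0.15 and a 95% interval of -0.26 to 0.40.

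Zfp930 and Zfp970 (14 matches each) and Zfp820 (13 matches in the coding sequence and 6 in the 3' UTR) had log2 fold changes of 0.13 ± 0.15, -0.03 ± 0.25 and -0.02 ± 0.21, all with overlapping groups. Zfp971 (13 matches) had 11.5, 22.4 and 15.7 CPM in KO replicates 2, 3 and 4, against 20.3, 29.0 and 21.2 CPM in WT replicates 1, 3 and 4. KO replicate 3 lay among the WT values, and the log2 fold change of -0.51 ± 0.25 did not pass the threshold (adjusted p = 0.262, edgeR). Zfp987 (14 matches) was below 1 CPM in every library and had a log2 fold change of -0.69 ± 0.52; 11.0% of its 50-base stretches were unique. Zfp970 had 50.3% unique stretches and Zfp994 had 81.8%.

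**Figure D4:**
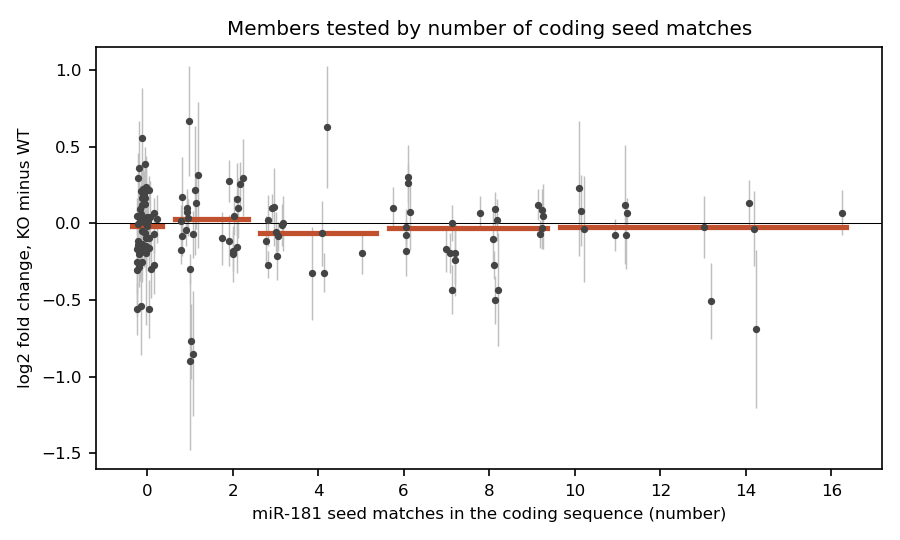
Log2 fold change (KO minus WT, with standard error) of the 138 members tested against the number of miR-181 seed matches in their coding sequences; points are spread sideways within each number. The red bars are the medians of members with 0, 1 to 2, 3 to 5, 6 to 9 and 10 or more matches, which lie between -0.06 and 0.03.

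The members were also split by domain, chromosome and sequence uniqueness. KRAB members (91 tested) had a median log2 fold change of -0.02 and the others (47 tested) one of -0.08. Among the chromosomes with 8 or more members, the median lay between -0.05 and 0.05 on chromosomes 2, 4, 6, 7, 8, 11, 13 and 17, and was -0.20 on chromosome 9 (7 tested). The 98 tested members with at least 90% unique 50-base stretches had a median of -0.03. Longer members had lower fold changes: the Spearman correlation with exon length was -0.25 across the members and -0.23 across 16911 genes, which is a description of the libraries as a whole.

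Among members higher in every KO library, Zfp768 had the smallest adjusted p of all members. Its human homologue binds a family of dispersed repeats. Zfp768 (chr7:127342795-127345589, minus strand) had 14.0, 12.9 and 12.9 CPM in KO replicates 2, 3 and 4, against 9.85, 10.6 and 10.01 CPM in WT replicates 1, 3 and 4. All KO values were above all WT values, with a log2 fold change of 0.39 ± 0.11 and an adjusted p of 0.0889 (edgeR). DESeq2 called it higher (adjusted p = 0.0352). The other members of largest positive change with no overlap were Zfp786 (0.67 ± 0.36, at 0.586 ± 0.081 CPM in KO and 0.371 ± 0.12 CPM in WT), Zfp938 (0.30 ± 0.21), Zfp719 (0.27 ± 0.14), Zfp933 (0.26 ± 0.12) and Zfp709 (0.23 ± 0.15), none of which passed the threshold.

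Among members lower in every KO library, the change was largest in Zfp827, whose human homologue recruits the NuRD complex to telomeres. Zfp827 had 1.07, 1.31 and 1.04 CPM in KO replicates 2, 3 and 4, against 1.94, 2.33 and 1.57 CPM in WT replicates 1, 3 and 4. The highest KO value was below the lowest WT value, and the log2 fold change was -0.77 ± 0.24 (adjusted p = 0.107, edgeR). Zfp609, which in mouse neural progenitors works with the cohesin loader Nipbl and the Integrator complex, had 30.6, 46.6 and 29.9 CPM in KO replicates 2, 3 and 4, against 47.1, 55.8 and 54.8 CPM in WT replicates 1, 3 and 4. KO replicates 2 and 4 were well below the WT libraries, and KO replicate 3 was just below WT replicate 1. The log2 fold change was -0.56 ± 0.17, with an adjusted p of 0.108 by edgeR, 0.0219 by DESeq2 and 0.0484 by limma. Without KO replicate 3 it was -0.79 (adjusted p = 0.0156, edgeR).

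Zfp946, a KRAB member with 8 coding seed matches, had 3.68, 4.05 and 4.05 CPM in KO replicates 2, 3 and 4, against 5.86, 5.67 and 5.15 CPM in WT replicates 1, 3 and 4. The groups did not overlap and the spread within each was small, with a log2 fold change of -0.50 ± 0.16 (adjusted p = 0.105, edgeR). Zfp945 on the same chromosome, with 7 matches, gave -0.43 ± 0.16 on the log2 scale (adjusted p = 0.144, edgeR). Zfp800 had 43.9, 46.6 and 42.2 CPM in KO replicates 2, 3 and 4, against 59.3, 48.1 and 55.5 CPM in WT replicates 1, 3 and 4, a log2 fold change of -0.30 ± 0.10 (adjusted p = 0.115, edgeR). Zfp683, known as Hobit, a factor of tissue-resident lymphocytes, was low, with 14 to 28 counts per library. It averaged 0.403 ± 0.025 CPM in KO and 0.587 ± 0.088 CPM in WT (SD, n = 3 each), with a log2 fold change of -0.54 ± 0.31. Summed T and NK cell markers (10 of 10 measured, 0 called) were 136 to 166 CPM in KO and 133 to 150 CPM in WT. Nkg7 made the largest part of these sums, averaging 85.4 CPM in KO and 62.6 CPM in WT. Nkg7 and Klrb1c had positive log2 fold changes and the other markers negative ones, with a median of -0.22 over the 10. The part of these cells in the Zfp683 value was not tested.

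Zfp831, Zfp871 and Zfp646 were singled out after their values were seen. Zfp831 had 20.2, 24.2 and 16.5 CPM in KO replicates 2, 3 and 4, against 23.0, 36.3 and 30.1 CPM in WT replicates 1, 3 and 4. KO replicate 3 lay above WT replicate 1, and the log2 fold change was -0.56 ± 0.19 with an adjusted p of 0.128 by edgeR and 0.0382 by DESeq2. Treating the replicate number as a block gave a log2 fold change of -0.73 (adjusted p = 0.0175, edgeR), and Zfp831 was the 1 member called in that fit, while 2.12% of all genes were called lower. In that fit WT replicate 1 and KO replicate 2 share their numbers with no other library and do not inform the contrast. The block fold change therefore rests on replicates 3 and 4 of each group, without the WT library that KO replicate 3 exceeded.

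Zfp871 had the widest spread within the groups among members with a mean of at least 5 CPM. This KRAB member (chr17:32765496-32788287, minus strand) has 1 coding seed match and 1 in the 3' UTR. It had 23.1, 66.1 and 31.97 CPM in KO replicates 2, 3 and 4, against 65.2, 78.9 and 74.6 CPM in WT replicates 1, 3 and 4. KO replicate 3 was at the level of the WT libraries, while KO replicates 2 and 4 were far below them. The log2 fold change was -0.85 ± 0.41 (adjusted p = 0.281, edgeR), and without KO replicate 3 it was -1.39 (adjusted p = 0.0113, edgeR). Its pooled SD within groups was 0.55 on the scale of log2(CPM + 0.5). Among 10459 genes with a mean of at least 5 CPM, 1.61% had a wider one, and among the 86 such members none did; the members' median was 0.126 and that of all these genes 0.133. Of its 50-base stretches 99.7% were unique.

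The neighbours of Zfp871 did not show its split among the KO libraries. Zfp799, the nearest zinc finger gene, had 5.52, 5.47 and 4.11 CPM in KO replicates 2, 3 and 4, against 5.46, 5.25 and 6.63 CPM in WT replicates 1, 3 and 4. Zfp952 had 11.5, 12.4 and 11.2 CPM in KO replicates 2, 3 and 4, against 10.9, 13.3 and 12.6 CPM in WT replicates 1, 3 and 4. Among the 11 other protein-coding genes with counts within 500 kb, the log2 fold changes lay between -0.35 and 0.32. Without KO replicate 3, 3 members were called lower (Zfp609, Zfp871 and Zfp646, the last at -0.44 with an adjusted p of 0.0454 by edgeR), while 3.46% of all genes were.

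**Figure D5:**
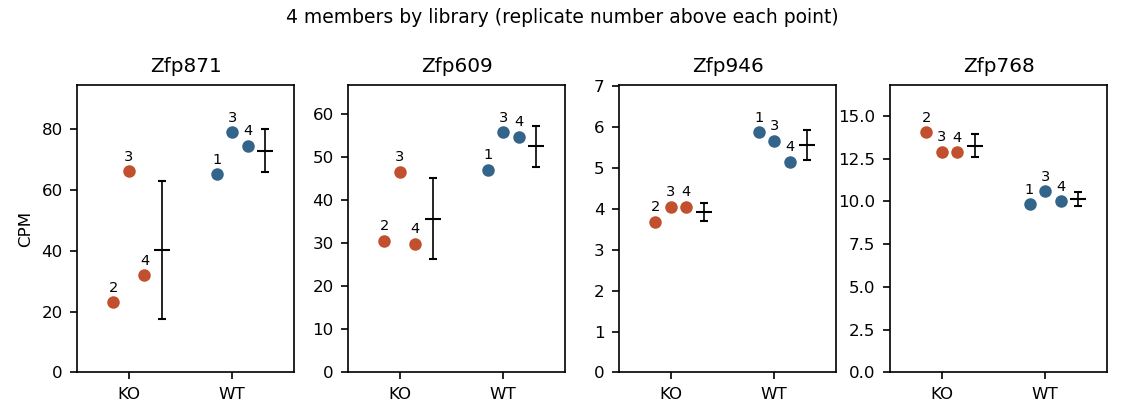
CPM by library of Zfp871, Zfp609, Zfp946 and Zfp768, KO left of WT, with the replicate number above each point and the black marks giving mean ± SD (n = 3 each). KO replicate 3 of Zfp871 (66.1 CPM) and of Zfp609 (46.6 CPM) lies near the WT libraries, while Zfp946 is lower and Zfp768 higher in all 3 KO libraries.

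Of 4 members with a known part in silencing retroelements, chosen by role, 3 were tested and 0 were called. Zfp809, a KRAB protein that recognises the primer binding site of murine leukaemia proviruses in mouse embryonic stem cells, had 18.9, 25.9 and 20.1 CPM in KO replicates 2, 3 and 4, against 21.4, 21.8 and 24.4 CPM in WT replicates 1, 3 and 4. The groups overlapped, with a log2 fold change of -0.06 ± 0.13 and a 95% interval of -0.35 to 0.24. Zfp932, a repressor of endogenous retroviruses in mouse embryonic stem cells, had a log2 fold change of -0.19 ± 0.13, with 63.0% unique stretches. Zfp638, whose human homologue silences unintegrated retroviral DNA, had one of 0.02 ± 0.10. Zfp708, which protects methylation of a retroelement family in the mouse, had 7 counts over the 6 libraries and was not tested; 96.4% of its exons overlapped another gene.

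Other members were chosen for roles outside retroelement silencing. Zfp644, whose human homologue works with the histone methyltransferases Ehmt1 and Ehmt2, gave -0.20 ± 0.09 on the log2 scale (adjusted p = 0.223, edgeR). Zfp622, whose human homologue acts in maturation of the large ribosomal subunit, had 49.9, 45.6 and 50.1 CPM in KO replicates 2, 3 and 4, against 54.3, 54.4 and 54.8 CPM in WT replicates 1, 3 and 4. Each KO value was below each WT value, but the difference was small, at a log2 fold change of -0.17 ± 0.08 (adjusted p = 0.228, edgeR). Zfp746, a repressor of Ppargc1a in neurons, had a log2 fold change of 0.01 ± 0.10. Zfp711, linked to intellectual disability in human, had 14 counts over the 6 libraries and Zfp750, a factor of epidermal differentiation, had 46, and neither was tested.

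Genes that work with KRAB zinc finger proteins, or in the heterochromatin they set up, were also measured. They are called corepressor genes here, although the list also holds broader heterochromatin genes such as Dnmt1, Uhrf1, Atrx and Daxx. Of 31 corepressor genes 30 were tested (Atf7ip2 was too low), and 0 were higher and 1 was lower in KO, against 0.938% and 1.52% of all genes. Trim28, the protein bound by the KRAB domain, averaged 228 ± 7.1 CPM in KO and 226 ± 26 CPM in WT (SD, n = 3 each), a log2 fold change of 0.01 ± 0.10. Setdb1, which methylates histone H3, averaged 59.2 ± 3.1 CPM in KO and 63.9 ± 2.2 CPM in WT, a log2 fold change of -0.11 ± 0.08 (adjusted p = 0.421, edgeR). The gene called lower was Chd3, a remodelling ATPase of the NuRD complex, with 52.6, 48.9 and 42.1 CPM in KO replicates 2, 3 and 4, against 72.7, 67.3 and 75.9 CPM in WT replicates 1, 3 and 4. The groups were well apart, with a log2 fold change of -0.59 ± 0.10 and an adjusted p of 0.0273 (edgeR); the call was lost when KO replicate 4, WT replicate 1 or WT replicate 4 was left out. At an unadjusted p under 0.05, 0 of the 30 were higher and 7 lower, against 11.7% and 12.2% of all genes. The groups did not overlap for 0 higher and 7 lower of the 30, against 14.4% and 14.7% of all genes. Both lower counts are a larger share of the 30 than of all genes, a difference that was not tested. The 30 had a median log2 fold change of -0.04.

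Of the 202 tested Zfp genes that are not members, 0 were higher and 3 (1.49%) lower in KO, against 0.938% and 1.52% of all genes. The 3 were Zfp36 with a log2 fold change of -0.85, Zfp39 with -0.52 and Zfp280c with -0.47. Zfp36 encodes an RNA-binding protein with a different type of finger, which destabilises inflammatory messages. At an unadjusted p under 0.05, 3 (1.49%) were higher and 37 (18.3%) lower, against 11.7% and 12.2% of all genes. The groups did not overlap for 14 higher and 42 lower genes, 27.7% together, against 29.1% of all genes. Their median log2 fold change was -0.08, and that of the members -0.03; the difference between these sets of genes was not tested.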

How the data were processed

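The authors deposited a table of raw read counts per gene for 6 bone marrow libraries. Per the submitters' processing notes, the tools were STAR 2.5.2b, Trimmomatic 0.36 and, from Subread 1.5.2, featureCounts, and the build was GRCm38. Strand setting, annotation release and handling of reads with several matches were not given in the sources used here. Values of near-identical or overlapping genes are therefore uncertain; exons of 27 members overlapped another gene by more than 5%.

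GENCODE M21 (GRCm38) gave a symbol to 49056 of 49315 identifiers. 3 genes with a matching symbol that are not protein-coding were left out. The deposited counts went into edgeR 4.0.16 under R 4.3.3 with these settings: TMM scaling, filterByExpr by group, robust quasi-likelihood test, two-sided, Benjamini-Hochberg adjustment over all genes tested, threshold 0.05. CPM uses the total times the TMM factor, and RPKM divides it by the merged exon length. The procedure was tested on simulated data. DESeq2 1.42.0, limma 3.58.1, other scalings and filters, a replicate block, an Xist covariate, a correction for exon length and GC, and leaving out each library were the alternatives. The Xist covariate split the libraries at a cut-off on their Xist level, and libraries fell on both sides of it. How they fell across KO and WT is not given here. A restriction to members with at least 90% unique 50-base stretches was chosen after seeing the data.

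Named members were the 10 highest in RPKM and the 6 of largest change in each direction with no overlap between groups. Tested members with the most coding seed matches and members of known role were also named. Zfp646, Zfp831 and Zfp871 were named after their values were seen. The members, the lists and the tests were chosen with earlier results of these data known. No replicate number marks a shared animal or day in the labels.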

Additional observations from a re-analysis of the deposited data

How the results depend on the processing

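The count of members called was 0 higher and 0 lower with library totals only, with DESeq2 size factors, without the filter, with a higher level filter (mean log2 CPM of 1 or more), without haemoglobin, mitochondrial and immunoglobulin genes, with the exon length and GC correction and with the Xist covariate. It was 1 higher and 2 lower by DESeq2, 1 lower by limma, and 0 to 3 lower with each library left out in turn. KO replicates 3 and 4 share their numbers with WT replicates. The deviations of same-numbered libraries correlated at 0.21 for number 3 and -0.14 for number 4. Those of differently numbered libraries correlated between -0.21 and 0.15. With so few shared numbers, these values cannot decide whether the numbers pair the libraries. The replicate block called 1 member lower, in a fit whose contrast of KO with WT rests on the libraries numbered 3 and 4. The median log2 fold change was -0.10 with library totals only and between -0.045 and -0.0042 with each library left out; without KO replicate 4, which stood apart, it was -0.02.

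Over all genes, 159 were higher and 258 lower. The counts were 857 and 784 by DESeq2, 495 and 562 by limma, 653 and 839 without the filter, 87 and 403 with library totals only, 76 and 133 with the Xist covariate, and 165 and 170 with the exon length and GC correction; leaving out each library gave 6 to 316 higher and 23 to 604 lower, with 9 and 23 without KO replicate 4. Other Zfp genes lower numbered 10 by DESeq2, 7 by limma, 12 without the filter, 7 with library totals only, 6 without haemoglobin, mitochondrial and immunoglobulin genes, 1 with the Xist covariate, 1 with the exon length and GC correction and 0 to 10 with each library left out. Corepressor genes lower numbered 2 by DESeq2, limma and without the filter, and 0 to 2 with each library left out. The cause of these differences was not tested.

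Of 554 fold changes of 35 named members under 16 alternatives, 510 kept their direction and side of the threshold, 8 passed the threshold and 36 changed sign. In the fit reported, Zfp644 was at -0.20 and the other members that changed sign lay between -0.06 and 0.07. Library totals only gave -0.055 for Zfp638, -0.039 for Zfp692, -0.048 for Zfp740, -0.063 for Zfp746, -0.0063 for Zfp984 and -0.0017 for Zfp994. The exon length and GC correction gave 0.027 for Zfp644, -0.0031 for Zfp692, 0.062 for Zfp710 and 0.018 for Zfp820, and the Xist covariate -0.014 for Zfp638 and 0.016 for Zfp820. limma gave -0.018 for Zfp638, -0.011 for Zfp740 and -0.028 for Zfp746, and the higher level filter -0.0091 for Zfp746. The replicate block gave -0.025 for Zfp692, -0.15 for Zfp740, -0.083 for Zfp746 and 0.15 for Zfp970. With each library left out, values ran over -0.047 to 0.10 for Zfp638, -0.032 to 0.086 for Zfp692, -0.14 to 0.020 for Zfp710, -0.079 to 0.091 for Zfp740, -0.067 to 0.069 for Zfp746, -0.20 to 0.033 for Zfp809, -0.096 to 0.076 for Zfp820, -0.19 to 0.16 for Zfp970 and -0.00047 to 0.20 for Zfp994.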
